A study of Mus musculus with 8 samples.

Results

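The transcripts of 10 genes of the insulin-like growth factor (IGF) system were followed in a mouse epicardial cell line in which Hdac3 was targeted. They are the ligand genes Igf2 and Igf1, the noncoding RNA gene H19, the receptor genes Igf1r, Insr and Igf2r, the adaptor gene Irs1, and the Igf2 mRNA-binding protein genes Igf2bp1, Igf2bp2 and Igf2bp3. They were taken by gene name, and 10 of the 35275 genes in the deposited tables carry these names, 1 row each. RNA was sequenced in 8 libraries from cells labelled as mouse epicardial cells (MCEC), grown in high-glucose medium with fetal bovine serum. The 4 EV libraries came from cells transduced with an empty lentiviral vector. The 4 KO libraries came from cells titled as an Hdac3 CRISPR/Cas9 knockout, which received a lentivirus with an Hdac3 single guide RNA. For KO replicate 1 the labels disagree: the title gives the knockout and the transduction field an empty vector. Grouping followed the titles. Neither the labels nor the design text says whether the KO cells were 1 clone or a pool, or whether replicates were grown separately. The p-values therefore measure only the spread between these libraries, which may be technical.

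IGF-II and IGF-I are secreted growth factors that signal through the IGF-I receptor and, in part, the insulin receptor, and from there through adaptors such as Irs1 to the kinase AKT. The product of Igf2r, the cation-independent mannose 6-phosphate receptor, binds IGF-II and carries it to lysosomes, which removes it from outside the cell. Igf2 and H19 are neighbouring imprinted genes that share enhancers, with Igf2 read from the paternal and H19 from the maternal chromosome, and mouse Igf2r is expressed mainly from the maternal chromosome. The Igf2bp proteins bind mRNAs, Igf2 mRNA among them, and act on their translation, stability and location. IGF-II made by the epicardium is known as a growth signal for the heart muscle of the embryo.

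The title of the series names a microRNA pathway, and the genes studied here also hold microRNAs. Mature sequences from RefSeq (GRCm38.p6) are shown because they give the letters that were looked for in the members' transcripts. Capitals mark the seed, bases 2 to 8, which pairs with target mRNAs. MiR-322-5p and miR-503-5p, which come from 1 cluster on chromosome X and are known to act on cell-cycle and growth genes, share the first 6 bases of the seed. The miR-675 hairpin lies at chr7:142577064-142577147 within an exon of 3 of the 7 annotated H19 transcripts. The miR-483 hairpin lies at chr7:142654924-142654996, within the span of 7 of the 9 annotated Igf2 transcripts and in an exon of 0 of them. Let-7a-5p is shown because let-7 is a known regulator of the Igf2bp genes. MicroRNA libraries were not analysed here, and the hairpins of miR-675 and miR-483 are not rows of the count table, so none of these sequences carries a level of its own.
miR-322-5p: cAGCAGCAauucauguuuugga
miR-503-5p: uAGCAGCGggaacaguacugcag
miR-675-5p: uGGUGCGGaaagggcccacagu
miR-675-3p: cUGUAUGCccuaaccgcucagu
miR-483-5p: aAGACGGGagaagagaagggag
miR-483-3p: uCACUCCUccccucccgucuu
let-7a-5p: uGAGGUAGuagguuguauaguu

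The reverse complement of the 7-base miR-322-5p seed, TGCTGCT, was searched on the sense strand in the longest annotated 3′ UTR of each protein-coding member and in the whole of the longest H19 transcript (GENCODE M21, GRCm38). It occurred at 3 places in Insr, at 2 in Igf2, at 1 each in Igf1, Igf1r, Igf2bp1 and Igf2bp3, and at 1 in H19, while Irs1 and Igf2bp2 held none. Of the 11881 tested genes with an annotated 3′ UTR, 25.3% held at least 1 such match. This share was not matched for length, and a longer sequence has more places for a match. The 3′ UTR searched has 7267 bases in Igf1r, 6308 in Igf1 and 1784 in Igf2bp2. The 2 matches in Igf2 overlap, since the second begins 3 bases after the first, in a run of TGC repeats. These stretches of 30 bases or fewer are shown for Igf2, Igf1, H19 and Igf2bp3, with the match in capitals. The choice is not complete, and that a gene is not shown says nothing of whether it holds a match. A match is a description of letters and not a measured site.
Igf2, chr7:142652784-142652790, minus strand: catctagtttcTGCTGCTgcttattggctc
Igf2, chr7:142652781-142652787, minus strand: ctagtttctgcTGCTGCTtattggctctat
Igf1, chr10:87930783-87930789, plus strand: gcaggatccttTGCTGCTtgagcaacctgc
H19, chr7:142576452-142576458, minus strand: taacacttctcTGCTGCTctctggatcctc
Igf2bp3, chr6:49085863-49085869, minus strand: cctcaaggccaTGCTGCTttctgagttgtt

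The 7-base miR-503-5p match, CGCTGCT, was found in 0 of the 10 members, against 4.90% of the tested genes, and its 6-base core GCTGCT lies inside every miR-322-5p match by construction. The let-7 match CTACCTC was most frequent in Igf2bp1, with 4 places in a 3′ UTR of 6337 bases. Igf1r held 2, and Igf1, Insr, Igf2r, Igf2bp2 and Igf2bp3 held 1 each, while Igf2, Irs1 and the H19 transcript held none, and 10.6% of the tested genes held at least 1. GCATACA, the miR-675-3p match, occurred at 2 places in Igf1r and 1 in Insr, against 8.39% of tested genes with a match, and the miR-675-5p match CCGCACC in 0 members. AGGAGTG, the miR-483-3p match, occurred once each in Igf2, Igf1, Irs1, Igf2bp1 and Igf2bp2, against 12.9% of tested genes. The shares in this paragraph were not matched for length either. The let-7 matches of Igf2bp1 at bases 1715 and 4136 of its UTR are shown, since let-7 sites are known for this gene.
Igf2bp1, chr11:95961779-95961785, minus strand: tgcgaagtaaaCTACCTCaaggtgtgaagt
Igf2bp1, chr11:95959358-95959364, minus strand: agtgctattaaCTACCTCagccccagaggg

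All 10 genes had enough counts to be tested. Library totals ranged from 18063745 to 24564892 counts, and 3 counts, the level taken as the limit of detection, corresponded to 0.122 to 0.166 CPM, the count scaled by the library total. This limit covers counting error only. Levels are CPM scaled by the TMM method of edgeR, and a gene was called when its adjusted p in edgeR's quasi-likelihood test over all 12801 tested genes was under 0.05. In KO against EV, 3 of the 10 were called lower (Igf2, H19 and Igf1), 2 were called higher (Igf2r and Igf2bp3) and 5 were not called. The background is large, since 26.0% of all tested genes were called, 12.6% higher and 13.4% lower in KO. With library totals alone in place of TMM, the share of calls that were higher moved from 48.5% to 30.1%. The CPM ranges of the 4 EV and the 4 KO libraries did not overlap for 5 of the 10 members, the same 5 that were called, and for 26.5% of all tested genes. The median log2 change of the 10 was −0.02, beside 0.01 over all tested genes, so the members did not move to one side as a set.

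**Figure D1:**
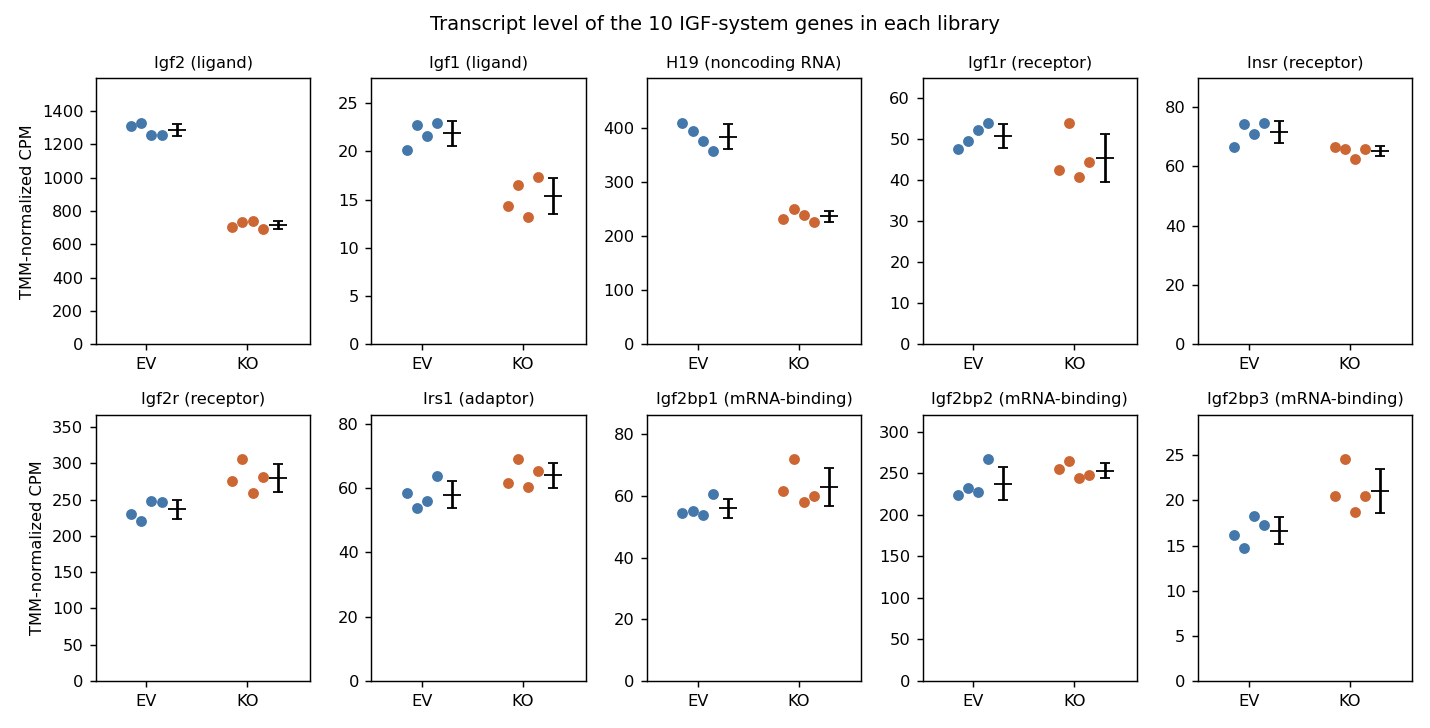
TMM-normalized CPM (vertical axis, from 0, a scale of its own in each panel) of the 10 genes in the 4 EV (blue) and 4 KO (orange) libraries, replicates 1 to 4 from left to right. Points are libraries and bars are the mean ± SD. Igf2, Igf1 and H19 are lower and Igf2r and Igf2bp3 higher in all KO libraries than in any EV library, and the other panels overlap.

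Igf2 encodes IGF-II (ENSMUSG00000048583, chr7:142650766-142666816 on the minus strand, mm10). It was the most abundant of the 10 transcripts and the one that fell most. Its level was 1308, 1330, 1255 and 1254 CPM in EV replicates 1 to 4 and 702, 732.5, 739 and 689.6 CPM in KO replicates 1 to 4. The highest KO library lay far below the lowest EV library, and the libraries of each group lay close together. The mean went from 1287 ± 38.2 (SD, n = 4) to 716 ± 23.7 CPM (SD, n = 4). That is a log2 change of −0.85 (SE 0.043, edgeR adjusted p = 4.65e-11), or 44.4% less. Of all tested genes, Igf2 had the 282nd lowest log2 change. Its share of all counts was 0.127 to 0.137% in EV and 0.0675 to 0.0724% in KO libraries, and its rank among genes by FPKM (fragments per kilobase of gene length, scaled by the library total) moved from 191 to 207 in EV to 370 to 402 in KO. The table's Igf2 row overlaps the antisense model Igf2os, which held 23 to 64 counts a library, against 13234 or more for Igf2. With the strand setting not given in the sources used here, reads of the pair cannot be told apart, but Igf2os counts are few beside those of Igf2.

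H19 (ENSMUSG00000000031, chr7:142575529-142578143, minus strand), the imprinted noncoding RNA and host of miR-675, fell as well. EV replicates 1 to 4 had 409, 393, 375 and 356 CPM and KO replicates 1 to 4 had 231, 249, 239 and 226 CPM. Every KO library was below every EV library, by more than the spread within either group. The mean was 383 ± 22.9 in EV and 236 ± 10.1 in KO (SD, n = 4 each), a log2 change of −0.70 (SE 0.049, edgeR adjusted p = 3.61e-09), or 38.4% less. No other gene model in the table overlaps H19.

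Igf2 and H19 therefore fell together, and the gap between their gene bodies is 72.62 kb. The ratio of the pair was taken within each library, since it does not depend on scaling between libraries. On the log2 scale of counts the Igf2 to H19 ratio was 1.68, 1.76, 1.74 and 1.82 in EV and 1.61, 1.56, 1.63 and 1.61 in KO replicates 1 to 4. Igf2 fell slightly more than H19: the groups did not overlap, and the mean ratio went from 1.75 ± 0.058 to 1.6 ± 0.031 (SD, n = 4 each), a difference of −0.15. The exact permutation test over all 70 arrangements gave p = 0.0286, two-sided, the smallest it can give with 4 against 4. Without any single KO library, the p of this small difference was 0.0571. Per length, the FPKM ratio was 1.63 ± 0.065 in EV and 1.47 ± 0.031 in KO.

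Igf1, which encodes IGF-I (ENSMUSG00000020053, chr10:87858265-87937042, plus strand), was a low transcript in these cells and fell too. It had 20.2, 22.7, 21.6 and 23.0 CPM in EV and 14.3, 16.5, 13.2 and 17.3 CPM in KO replicates 1 to 4. The highest KO library remained below the lowest EV library. Means were 21.9 ± 1.28 in EV and 15.3 ± 1.88 CPM in KO (SD, n = 4 each), with a log2 change of −0.51 (SE 0.089, edgeR adjusted p = 2.69e-04). The antisense model that overlaps Igf1 had no count in any library. Both IGF ligand genes were thus lower in the KO libraries.

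Of 10 further insulin-like ligand and receptor genes, 1, Insl6, passed the filter on low counts, at 2.09 ± 0.352 CPM in EV and 1.46 ± 0.131 in KO (log2 change −0.50, edgeR adjusted p = 0.0901). Ins1, which encodes an insulin, had no count in any library, and Ins2, the insulin gene next to Igf2, had at most 0.164 CPM.

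Among the receptor genes, Igf2r was called, and Igf1r and Insr were not. Igf2r (ENSMUSG00000023830, chr17:12682406-12769664, minus strand) had 231, 221, 249 and 247 CPM in EV and 276, 306, 259 and 282 CPM in KO replicates 1 to 4. All KO libraries were above all EV libraries, with KO replicate 3 closest to EV replicate 3. The mean rose from 237 ± 13.3 to 280.4 ± 19.4 CPM (SD, n = 4 each), with a log2 change of 0.24 (SE 0.053, edgeR adjusted p = 0.00203), or 18.5% more. The noncoding RNA Airn, which is read through Igf2r on the opposite strand, held 58 to 118 counts a library, against 4212 or more for Igf2r. Airn was not called (3.71 ± 0.781 CPM in EV and 4.50 ± 0.533 in KO, SD, n = 4 each, log2 change 0.28, edgeR adjusted p = 0.230). With the strand setting unknown, its few counts could be reads of Igf2r.

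The ligand and its clearance receptor thus moved in opposite directions. Within libraries, the log2 ratio of Igf2 to Igf2r counts was 2.50, 2.59, 2.34 and 2.35 in EV and 1.35, 1.26, 1.51 and 1.29 in KO replicates 1 to 4. The lowest EV library was above the highest KO library by more than the whole range within either group. Mean ratios were 2.44 ± 0.124 and 1.35 ± 0.113 (SD, n = 4 each), a difference of −1.09 (exact permutation test, two-sided p = 0.0286, the smallest possible). As a ratio of FPKM, there was 10.3 ± 0.889 times as much Igf2 as Igf2r transcript per length in EV and 4.82 ± 0.387 times in KO.

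**Figure D2:**
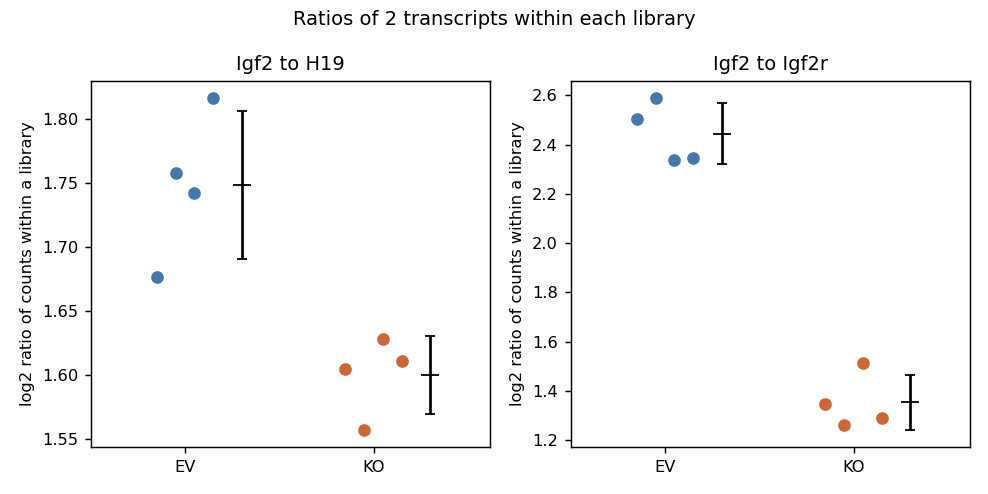
Log2 ratio of counts within each library for Igf2 to H19 (left) and Igf2 to Igf2r (right) in EV (blue) and KO (orange), with mean ± SD over 4 libraries (the vertical axes do not start at 0). The Igf2 to H19 ratio lies between 1.68 and 1.82 in EV and between 1.56 and 1.63 in KO, and the Igf2 to Igf2r ratio between 2.34 and 2.59 in EV and between 1.26 and 1.51 in KO.

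Igf1r, the receptor through which both IGFs signal (ENSMUSG00000005533, chr7:67952859-68226780, plus strand), had 47.6, 49.6, 52.4 and 54.0 CPM in EV and 42.6, 54.1, 40.7 and 44.4 CPM in KO replicates 1 to 4. KO replicates 1, 3 and 4 were below all EV libraries and KO replicate 2 was above them. The means were 50.9 ± 2.88 and 45.5 ± 5.94 CPM (SD, n = 4 each), a log2 change of −0.16 (95% interval −0.32 to −0.01, edgeR adjusted p = 0.121). This did not pass the test, and without KO replicate 2 it did (log2 change −0.26, edgeR adjusted p = 0.00625). Insr, the insulin receptor gene (ENSMUSG00000005534, chr8:3150922-3279617, minus strand), had 66.5, 74.3, 71.0 and 74.8 CPM in EV and 66.6, 65.9, 62.6 and 65.9 CPM in KO replicates 1 to 4. EV replicate 1 lay among the KO libraries and the other EV libraries above them. The means were 71.6 ± 3.82 and 65.3 ± 1.83 CPM (SD, n = 4 each), a log2 change of −0.14 (95% interval −0.25 to −0.03, edgeR adjusted p = 0.0625), also not called. On the deposited FPKM scale, which carries no correction for library composition, the EV and KO ranges of Insr did not overlap. Insrr, the insulin receptor-related receptor gene, was at or under the limit of detection in every library.

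Irs1, the adaptor that links both receptors to PI3 kinase (ENSMUSG00000055980, chr1:82233101-82291416, minus strand), had 58.6, 53.8, 56.0 and 63.7 CPM in EV and 61.5, 69.0, 60.5 and 65.2 CPM in KO replicates 1 to 4. The groups overlapped through EV replicate 4. The means were 58.0 ± 4.25 and 64.1 ± 3.85 CPM (SD, n = 4 each), a log2 change of 0.14 (95% interval 0.02 to 0.27, edgeR adjusted p = 0.0932), not called.

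Of the Igf2 mRNA-binding protein genes, Igf2bp3 was called higher and the other 2 were not called. Igf2bp3 (ENSMUSG00000029814, chr6:49085221-49214954, minus strand), which encodes an oncofetal RNA-binding protein, had 16.2, 14.8, 18.3 and 17.3 CPM in EV and 20.5, 24.5, 18.8 and 20.5 CPM in KO replicates 1 to 4. KO replicate 3 was only just above EV replicate 3, and KO replicate 2 was the highest. The mean rose from 16.6 ± 1.51 to 21.1 ± 2.45 CPM (SD, n = 4 each), with a log2 change of 0.34 (SE 0.092, edgeR adjusted p = 0.00998). With KO replicates 2 and 3 left out, the change was 0.30 and missed the threshold (edgeR adjusted p = 0.0593), and it missed it on the FPKM scales too. In FPKM, KO replicate 3 (4.23) lay below EV replicate 3 (4.25), so the ranges of the groups overlapped. The end of Igf2bp3 overlaps Malsu1 on the opposite strand, which had 273 to 423 counts a library, about as many as the 295 to 501 of Igf2bp3, so reads of the overlap could belong to either gene.

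Igf2bp1 (ENSMUSG00000013415, chr11:95957163-96005940, minus strand) had 54.4, 55.3, 53.9 and 60.5 CPM in EV and 61.8, 71.9, 58.2 and 60.1 CPM in KO replicates 1 to 4. EV replicate 4 lay among the KO libraries. The means were 56.0 ± 3.07 and 63.0 ± 6.13 CPM (SD, n = 4 each), a log2 change of 0.17 (95% interval 0.03 to 0.30, edgeR adjusted p = 0.0667). Without EV replicate 4 the change was 0.21 and passed (edgeR adjusted p = 0.0178). Igf2bp2 (ENSMUSG00000033581, chr16:22059009-22163299, minus strand) was the most abundant of the family, with 224, 232, 228 and 267 CPM in EV and 255, 265, 245 and 248 CPM in KO replicates 1 to 4. EV replicate 4 was the highest of all 8 libraries, and the other 3 EV libraries were below all KO libraries. The means were 238 ± 19.5 and 253 ± 8.99 CPM (SD, n = 4 each), a log2 change of 0.09 (95% interval −0.02 to 0.20, edgeR adjusted p = 0.231). Without EV replicate 4, both Igf2bp2 (0.15, edgeR adjusted p = 0.0111) and Irs1 (0.19, edgeR adjusted p = 0.0149) passed as well, so the count of members called higher was 5 in place of 2. Of the summed FPKM of the 3 Igf2bp genes, Igf2bp2 made up 82.0% in EV and 80.5% in KO, Igf2bp1 11.4% and 11.8%, and Igf2bp3 6.56% and 7.63%.

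**Figure D3:**
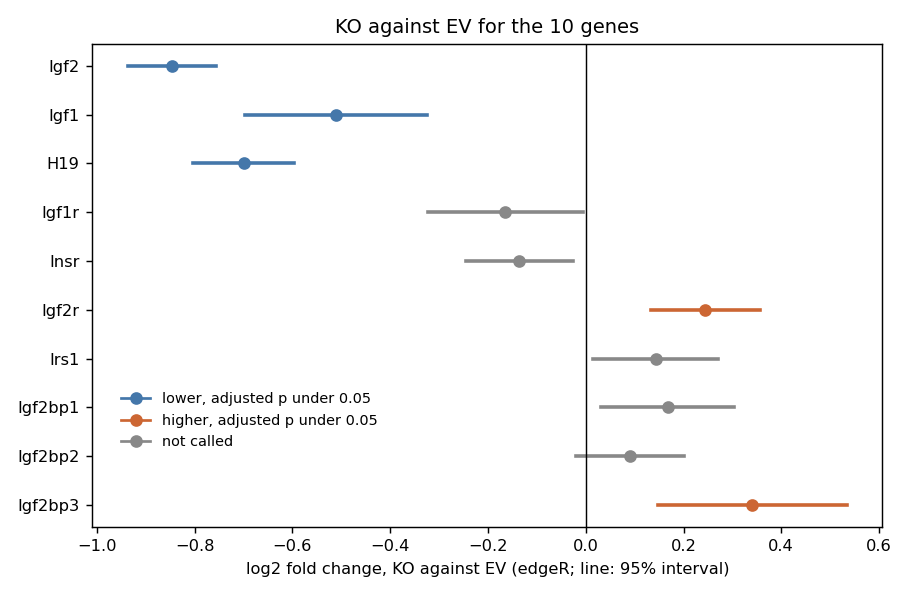
Log2 fold change of KO against EV for the 10 genes from edgeR, with 95% intervals (horizontal axis; negative values are lower in KO). Igf2, Igf1 and H19 lie between −0.85 and −0.51, Igf2r and Igf2bp3 at 0.24 and 0.34, and the 5 genes in grey did not pass the adjusted threshold, although the interval of each but Igf2bp2 leaves out 0 before adjustment.

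In each of the 5 called members the exact permutation test of CPM over 70 arrangements gave p = 0.0286, two-sided, the smallest possible. The others had p = 0.0571 for Insr, 0.0857 for Igf2bp1, 0.114 for Irs1, 0.171 for Igf1r and 0.200 for Igf2bp2 in the same exact test.

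Levels of different genes were compared per length, by FPKM. In EV, Igf2 was highest at 277 ± 9.30 FPKM, then H19 at 170.5 ± 9.96, Igf2bp2 at 48.8 ± 4.20, Igf2r at 27.1 ± 1.43, Igf1r at 11.5 ± 0.674, Insr at 7.79 ± 0.467, Igf2bp1 at 6.80 ± 0.400, Irs1 at 6.45 ± 0.472, Igf2bp3 at 3.89 ± 0.335 and Igf1 at 3.15 ± 0.206 FPKM (SD, n = 4). The EV ranges of neighbours overlapped for Insr and Igf2bp1 and for Igf2bp1 and Irs1, so neither pair can be ordered, although every EV value of Insr lay above every EV value of Irs1. No other neighbours overlapped. In KO the order was the same from Igf2 (149 ± 5.09) through H19 (101 ± 4.61), Igf2bp2 (50.2 ± 1.95) and Igf2r (31.0 ± 2.23) to Igf1r (9.94 ± 1.33), and again Igf2bp3 (4.76 ± 0.571) and Igf1 (2.14 ± 0.264) were last. Between them Igf2bp1 (7.38 ± 0.744), Irs1 (6.88 ± 0.430) and Insr (6.85 ± 0.205) overlapped as neighbours. The table divides Igf1r by 4489 bases, while its longest GENCODE M21 transcript has 11409, so the FPKM of Igf1r depends on the gene model more than that of the other members. The counted Igf1r row ends at chr7:68226780, and the 7-base matches given above for Igf1r all lie beyond that end. They are therefore outside the gene model whose level is reported. For 8 members the table's length equals that of the longest transcript, and for Igf2bp3 it differs by 1 base.

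Promoters are shown for Igf2r and Igf2bp3 because these were the members called higher. RefSeq (GRCm38.p6) gives windows of 300 bases around the start, most of them before it, for 7 of the 10 members, 4 windows of them for Igf2, and the table has no entry for H19, Insr and Igf2bp1. Capitals mark the E-box CACGTG, a palindrome bound by factors of the basic helix-loop-helix group, which was chosen as a motif after the sequences were seen. It occurs 2 times in each of these promoters and 1 time in that of Irs1. It has no match in the windows of Igf2, Igf1, Igf1r and Igf2bp2. Of 32851 promoters in the table, 7.15% hold it at least 1 time and 0.594% at least 2 times. Because the motif was chosen with these sequences in view, the shares cannot say how unusual the matches are. The GC box GGGCGG, searched on both strands, occurs 3 times in the Igf2r window and 0 times in that of Igf2bp3, and 35.7% of all promoters hold it. No binding was measured here.
Igf2r, chr17:12769657-12769956, minus strand: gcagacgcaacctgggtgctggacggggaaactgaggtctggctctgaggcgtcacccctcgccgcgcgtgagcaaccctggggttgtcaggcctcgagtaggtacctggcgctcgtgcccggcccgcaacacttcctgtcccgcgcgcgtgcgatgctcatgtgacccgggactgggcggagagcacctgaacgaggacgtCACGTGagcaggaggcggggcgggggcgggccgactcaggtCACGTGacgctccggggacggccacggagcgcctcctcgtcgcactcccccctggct
Igf2bp3, chr6:49214905-49215204, minus strand: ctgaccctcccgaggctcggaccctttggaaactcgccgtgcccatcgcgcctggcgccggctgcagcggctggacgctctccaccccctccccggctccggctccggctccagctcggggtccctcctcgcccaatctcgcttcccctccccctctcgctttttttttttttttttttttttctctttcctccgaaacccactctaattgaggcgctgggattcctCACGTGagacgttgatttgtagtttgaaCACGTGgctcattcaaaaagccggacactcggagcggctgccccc

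Genes around Igf2 and H19 on chromosome 7 did not all follow the pair. Of 18 neighbours listed, 12 were tested, 2 were called lower and 1 higher (25.0% called, beside 26.0% of all tested genes). The median log2 change of the tested neighbours was −0.16, beside 0.01 over all tested genes. Lsp1, which encodes a lymphocyte-specific actin-binding protein, fell from 79.3 ± 6.38 to 61.6 ± 1.15 CPM (log2 change −0.37, SE 0.057, edgeR adjusted p = 8.06e-05). Tnnt3, which encodes fast skeletal muscle troponin T, fell from 1.65 ± 0.587 to 0.841 ± 0.167 CPM (log2 change −0.96, SE 0.292, edgeR adjusted p = 0.0210), a low level. The skeletal muscle markers were lower as well, at a summed 2.58 to 6.96 CPM in EV and 0.624 to 0.733 CPM in KO, and their part in the Tnnt3 difference was not tested. Cd81, a tetraspanin gene, rose from 297 ± 13.0 to 333 ± 3.38 CPM (log2 change 0.16, SE 0.043, edgeR adjusted p = 0.00803). Mrpl23, the mitochondrial ribosomal protein gene nearest to H19 among those tested on that side, was not called at 20.2 ± 1.70 and 18.8 ± 1.12 CPM (log2 change −0.10, edgeR adjusted p = 0.384). Ctsd, the cathepsin D gene, was not called either, at 897 ± 25.9 and 968 ± 42.2 CPM (log2 change 0.11, edgeR adjusted p = 0.0760). Igf2os, which overlaps Igf2, had 2.06 ± 0.601 and 1.34 ± 0.250 CPM (log2 change −0.62, edgeR adjusted p = 0.0771). With the strand setting unknown, its few counts could be reads of Igf2. Around Igf2r on chromosome 17, 7 of 12 listed neighbours were tested and 1 was called (14.3%, beside 26.0% of all tested genes). It was Wtap, a component of the mRNA methylation complex, which fell from 71.8 ± 5.23 to 63.9 ± 1.86 CPM (log2 change −0.17, edgeR adjusted p = 0.0329).

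**Figure D4:**
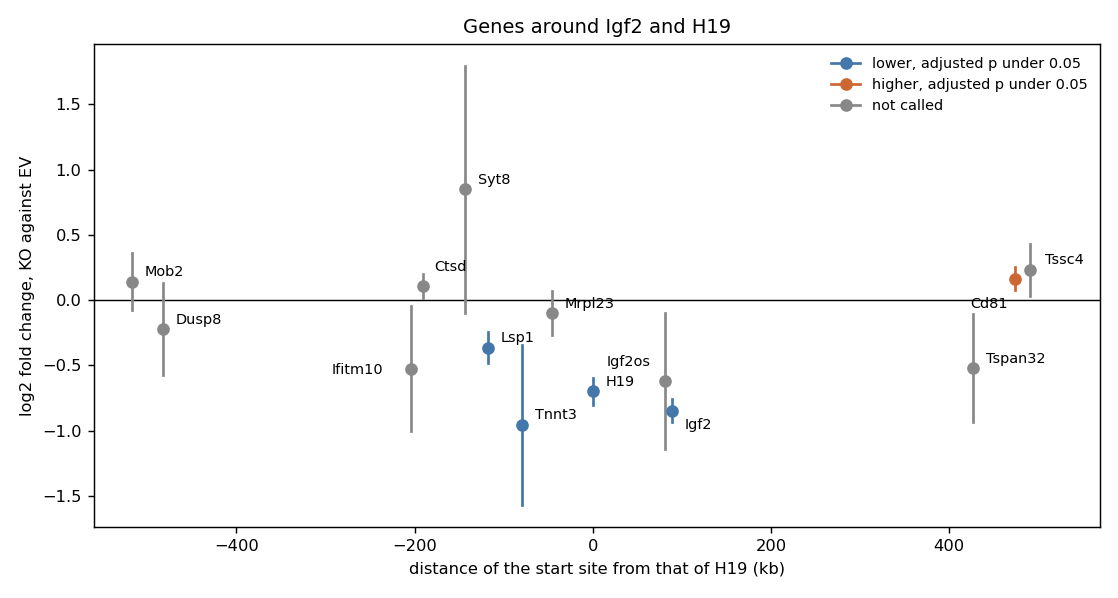
Log2 fold change of KO against EV (points, edgeR, with 95% intervals) for the tested genes near the Igf2 and H19 locus, by distance of the start site from that of H19 in kb. H19 and Igf2, 88.67 kb apart by their starts, fell by 0.70 and 0.85 on the log2 scale, Lsp1 and Tnnt3 fell, Cd81 rose, and the genes in grey were not called.

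The other genes of the pathway changed in both directions. Among IGF binding proteins and the proteases that cut them, 10 of 15 listed genes were tested, 3 were called higher and 3 lower (60.0% called, beside 26.0% of all tested genes). Igfbp4, which encodes a binding protein that holds IGFs away from their receptor, rose from 1145 ± 68.3 to 1569.8 ± 39.4 CPM (log2 change 0.46, SE 0.046, edgeR adjusted p = 4.59e-07). Pappa, the gene of a protease that cuts Igfbp4, fell from 13.7 ± 1.04 to 9.32 ± 0.960 CPM (log2 change −0.56, SE 0.10, edgeR adjusted p = 3.51e-04). Igfbp7, a low-affinity IGF binding protein gene, fell from 151 ± 13.8 to 111 ± 8.20 CPM (log2 change −0.45, SE 0.064, edgeR adjusted p = 3.35e-05). Of these, Igfbp7 overlaps Polr2b on the opposite strand over 85 bases. The median log2 change of the tested list was −0.05, beside 0.01 over all tested genes.

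In the signalling chain from the receptors to AKT and mTOR, 34 of 36 listed genes were tested. Of these, 5 were called higher, 2 lower and 27 were not called (20.6% called, beside 26.0% of all tested genes). Grb10, an imprinted gene whose product binds the insulin and IGF-I receptors and dampens their signal, fell from 920.3 ± 43.7 to 595 ± 29.96 CPM (log2 change −0.63, SE 0.048, edgeR adjusted p = 1.13e-08). Its EV libraries lay between 896 and 986 CPM and its KO libraries between 563 and 634 CPM. Deptor, an inhibitor of mTOR, rose from 2.84 ± 0.357 to 4.74 ± 0.231 CPM (log2 change 0.73, SE 0.147, edgeR adjusted p = 9.93e-04). Pik3r3, a regulatory subunit of PI3 kinase, fell from 19.2 ± 1.10 to 15.5 ± 1.07 CPM (log2 change −0.30, SE 0.081, edgeR adjusted p = 0.00874).

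FoxO factors are held out of the nucleus when AKT is active, and their target genes are often used to read the pathway. Of 17 listed targets, 14 were tested, 3 were called higher and 3 lower (42.9% called, beside 26.0% of all tested genes). Fbxo32, a ubiquitin ligase subunit gene, rose from 22.0 ± 2.47 to 40.9 ± 4.30 CPM (log2 change 0.89, SE 0.085, edgeR adjusted p = 2.08e-07). Sesn1 and Sesn3, which encode sestrins, stress proteins that restrain mTOR, fell by 0.44 and 0.48 on the log2 scale (edgeR adjusted p = 5.15e-06 and 3.81e-04). The FoxO list therefore had no single direction, with a median log2 change of 0.02.

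The Igf2r product also sorts lysosomal enzymes, and 12 of 12 listed genes of mannose 6-phosphate sorting were tested. Of these, 2 were called higher and 0 lower (16.7% called, beside 26.0% of all tested genes). Plin3, also known for binding mannose 6-phosphate receptors, rose from 122 ± 7.41 to 149 ± 5.67 CPM (log2 change 0.29, SE 0.050, edgeR adjusted p = 2.55e-04). Vps35, a retromer subunit gene, rose from 381 ± 22.6 to 422 ± 4.54 CPM (log2 change 0.15, SE 0.046, edgeR adjusted p = 0.0246). Among the 13 let-7 and fetal growth regulators linked to the Igf2bp genes, 12 were tested. Of these, 3 were called higher and 2 lower (41.7% called, beside 26.0% of all tested genes). The chromatin protein genes Hmga1 (39.4 ± 2.98 to 55.1 ± 1.33 CPM) and Hmga2 (51.5 ± 3.46 to 63.2 ± 3.66 CPM) rose by 0.49 and 0.29 on the log2 scale, with edgeR adjusted p = 5.68e-06 and 0.00121. Arid3a, a DNA-binding protein gene, rose from 13.3 ± 1.56 to 18.7 ± 1.37 CPM (log2 change 0.49, edgeR adjusted p = 6.57e-04). Hmga1 overlaps a small opposite-strand gene model over 100 bases. The lists were chosen with earlier results of these data known, and their counts are descriptions.

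For each called member the 3 most similar genes were taken by the smallest root mean square difference of log2 CPM, each gene set against its own EV mean, over the 8 libraries and 9868 genes of at least 5 CPM. They were Dnajc6, Ak4 and Tmcc3 for Igf2, with differences of 0.059 to 0.064 and log2 changes of −0.83, −0.92 and −0.81. For H19 they were Vdr, Mrc2 and Bub1b, at 0.052 to 0.054, with log2 changes of −0.68, −0.66 and −0.67. Hmgn5, Top2a and Nav2 came closest to Igf1 (0.044 to 0.067), Peak1, Pdpr and Vcl to Igf2r (0.037 to 0.039), and Fbxo46, Aim1 and Klf7 to Igf2bp3 (0.056 to 0.062). Likeness over 8 libraries in 2 groups mainly reflects a group difference of similar size.

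The first principal component held 48.1% of the variance and separated the groups, and Hdac3 itself did not differ (61.9 ± 1.53 and 61.6 ± 3.23 CPM, log2 change −0.005, edgeR adjusted p = 0.956), so its transcript does not check the labels. An edit by Cas9 need not lower the transcript. Epicardial and mesothelial markers were present, 13 of 14 of them at a level that could be tested, with summed levels of 5439 to 5778 CPM in EV and 5333 to 5473 in KO. Of the 13, 5 were called lower: Wt1 (341 and 263 CPM), Upk3b (1858 and 1465), Lrrn4 (1086 and 883), Tcf21 (100 and 60.1) and Muc16 (9.11 and 4.03). Another 4 were called higher: Msln (683 and 926), Krt18 (449 and 654), Krt8 (4.17 and 13.0) and Krt19 (1.23 and 2.46). Tbx18 was not called (16.1 and 16.9 CPM), and Aldh1a2 was at 0.407 and 0.251 CPM. Fibroblast markers summed to 26155 to 28178 CPM in EV and 34717 to 36174 in KO, with 4 of 6 tested called higher, the other 2, Pdgfra and Lum, called lower (348 and 267 CPM, 76.2 and 63.0 CPM), and Thy1 at or near 0 in every library. Cardiomyocyte markers summed to 146 to 158 and 111 to 129 CPM, nearly all of it Tnnt2, with Nppa at 0. Endothelial markers summed to 24.7 to 28.6 and 19.01 to 21.3 CPM, mostly Kdr, which was called lower (21.7 and 14.6 CPM), and Tek, called higher (3.89 and 5.19 CPM), with Pecam1, Cdh5 and Tie1 at or near 0. Leukocyte markers summed to 6.07 to 7.35 and 9.56 to 10.8 CPM, mostly Cd68, with Ptprc near 0. In the skeletal muscle list, lower in KO as given above, Myod1 and Myog were at 0. Liver markers summed to 13.5 to 17.1 CPM in EV and to 22.6, 36.8, 36.3 and 16.9 CPM in KO replicates 1 to 4, so that KO replicates 2 and 3 stood apart, and 18 of 21 had a higher mean in KO. Without KO replicates 2 and 3 the log2 changes were −0.89 for Igf2, −0.75 for H19, −0.46 for Igf1 and 0.24 for Igf2r, all still called. Igf2bp3 lost its call in that fit (0.30, edgeR adjusted p = 0.0593). KO replicate 1, whose liver sum of 22.6 CPM lay above every EV library, was kept in it. Apart from these values, the part of the marker differences in the members' changes was not tested. In RNA from a whole culture, fewer cells of a kind and less RNA per cell cannot be told apart.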

How the data were processed

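Libraries were grouped by title into 4 EV and 4 KO. As deposited, 1 table holds unnormalized whole-number counts and 1 holds FPKM for 35275 genes, and FPKM equals the count over gene length and library total for 100% of nonzero values (tolerance 1e-06). The build mm10 and DESeq 1.6.3 are named per the submitters' processing notes. Not given in the sources used here were the aligner, counting program, annotation release and strand mode. The members, gene lists and tests were chosen with earlier results of these data known.

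The deposited counts were tested with edgeR 4.0.16 (R 4.3.3). Scaling was by TMM, filterByExpr kept genes with its default count minimum of 10 and total of 15, and the two-sided quasi-likelihood test was adjusted by Benjamini-Hochberg over 12801 genes at 0.05. Totals ran from 18063745 to 24564892 counts a library, with a biological coefficient of variation of 6.41%. No replicate pair was a duplicate, since counts within a group differed beyond sampling noise (chi-square over its degrees of freedom 4.14 to 13.9). Single members and within-library ratios, formed after adding 0.5 to each count, also had an exact permutation test over 70 arrangements, two-sided. A simulation of this comparison with 12801 genes had 50 genes at each of 4 sizes of change: 52% were found at 1.25-fold, 72% at 1.5-fold, 96% at 2-fold and 98% at 4-fold, with 14 false calls among 12601 genes. Far fewer genes changed in the simulation than the 26.0% called in the data, which makes its adjusted threshold stricter. The shares found there therefore do not give those of the real comparison.

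Named genes are the 10 members, Hdac3, up to 3 called genes with the smallest adjusted p from each of 8 lists (or up to 2 where none was called), neighbours of Igf2, H19 and Igf2r with at least 1 count in a library, and the 3 genes nearest to each called member by the likeness given in the text (log2 CPM with a prior count of 2), leaving out predicted gene models. Adgre1, a leukocyte marker, had no row of that name. Among named genes, Lsp1, Tnnt3, Cd81, Peak1, Pdpr, Vcl and Insrr overlap a gene on the opposite strand that has counts, and Ctsd one on the same strand. For Insrr that gene had 453 to 956 counts a library. Deptor, Fbxo32, Hmga2, Igf2bp1 and Tmcc3 overlap gene models with at most 4 counts in any library. Seed matches were searched in the longest 3′ UTR of each gene in GENCODE M21, and some matches are not reported here. Alternatives were DESeq2 1.42.0, limma-voom (limma 3.58.1), RLE scaling, library totals alone, no filter, a filter of at least 1 CPM in 4 libraries, limma on log2(FPKM + 1), filtered at 0.5 FPKM in 4 libraries or unfiltered, and on log2(FPKM + 0.1), a block for the replicate number, and fits that left out each library in turn or KO replicates 2 and 3.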

Additional observations from a re-analysis of the deposited data

Results flagged for a closer look

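In 1 case a library stood apart from its group for a member. In KO replicate 3 Insr, the insulin receptor gene, was at 62.6 CPM, while the other 3 KO libraries lay between 65.9 and 66.6 CPM, so that the gap to the nearest library took up 0.833 of the whole range of the group, just above Dixon's 95% critical value for 4 samples. Of the groups of 4 values checked, 24 in all, chance flags about 1 in 20. Without KO replicate 3 Insr was still not called (log2 change −0.12, edgeR adjusted p = 0.171).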

How the results depend on the processing

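Igf2, H19 and Igf1 kept their direction and their call under all 19 alternatives, with log2 changes from −0.90 to −0.83, −0.75 to −0.67 and −0.58 to −0.41, and no member reversed under any of them. Of the main 1613 genes called higher, library totals alone gave 1039, log2(FPKM + 1) 896, log2(FPKM + 0.1) 897, log2(FPKM + 1) with no filter 766, and leaving out KO replicates 2 and 3 gave 880, and in that last fit 1094 in place of 1711 were called lower. Members called higher, 2 in the main fit, numbered 1 under both filtered FPKM fits and without KO replicates 2 and 3, and 0 under log2(FPKM + 1) with no filter, where Igf2r missed the threshold (limma adjusted p = 0.0681). Members called lower, 3 in the main fit, numbered 5 with library totals alone, which added Igf1r (edgeR adjusted p = 0.0447) and Insr (0.0143). Leaving out each library in turn gave 2 to 5 members higher and 3 to 4 lower, and 1239 to 1584 genes higher and 1382 to 1775 lower. Without KO replicate 1, whose labels disagree, 2 members were higher and 3 lower, with log2 changes of −0.84 for Igf2 and −0.69 for H19. Igf2bp3 lost its call in 4 alternatives (adjusted p from 0.0524 to 0.117), Igf1r, Insr and Igf2bp1 gained one in 4 each, and Irs1 and Igf2bp2 in 1 each. The difference of the log2 ratio of Igf2 to H19 was −0.14 without KO replicates 2 and 3 (exact permutation p = 0.0667, the smallest possible there) and −0.17 to −0.13 with each library left out. That of Igf2 to Igf2r was −1.12 without KO replicates 2 and 3 (exact permutation p = 0.0667) and −1.14 to −1.04 with each left out. The cause of these shifts was not tested. With the replicate number as a block, 1879 genes were higher and 1858 lower, and Igf2bp1 was called (0.17, edgeR adjusted p = 0.0365). The labels give same-numbered EV and KO libraries a number in common and name no other link. Deviations of same-numbered libraries correlated by −0.03 to 0.12, and 3 of 4 EV libraries correlated best with their own number. Whether same-numbered libraries form a pair or a batch was not tested.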
